A study of Homo sapiens with 6 samples.

Results

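The genes described here are 10 members of the ATF4-CHOP arm of the stress response together with ATF3, namely ATF3, ATF4, ATF5, DDIT3 (which encodes CHOP), TRIB3, CHAC1, ASNS, PPP1R15A (GADD34), SESN2 and CEBPB. They were taken by symbol from a table of 60611 genes, each matched 1 row, and all 10 passed the filter on low counts that left 17863 genes for testing. Their RNA was measured in a cell line of human pancreatic beta cells, EndoC-BH5, with the genotype label WT, as 3 libraries from batches given interferon gamma with interleukin 1b (here called cytokine) and 3 from batches given vehicle. Neither dose nor duration of treatment is given in the sources used here, and the results concern a single cell line.

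Cells phosphorylate the translation factor eIF2alpha when the endoplasmic reticulum is overloaded, when amino acids or haem run short, or when double-stranded RNA is sensed. General translation then falls while the mRNA of ATF4 is translated more, so ATF4 activity is set largely after transcription and its mRNA level does not report the protein. ATF4 raises genes for amino acid supply and redox balance, and with longer stress it raises CHOP, which is linked to beta-cell death, while PPP1R15A directs the removal of the phosphate from eIF2alpha. ATF3 is a stress-responsive transcription factor that ATF4 can induce but that cytokine, JNK and NF-kappaB signals can also induce.

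Of the 10 genes, 9 rose with cytokines and SESN2 fell (edgeR quasi-likelihood test, adjusted p under 0.05). Of all tested genes 57.1% were called in either direction, 28.3% higher and 28.8% lower, so the share called higher was above that of the table as a whole. The sizes were uneven. ATF3 was 5.77-fold higher and PPP1R15A 3.30-fold higher, ASNS and CEBPB were 1.88-fold and 1.64-fold higher, and the other 5 that rose, ATF4 and DDIT3 among them, were 1.09-fold to 1.30-fold higher. A rise of at least 1.5-fold was found in 4 of the 10 genes and in 11.1% of tested genes, and a rise of at least 2-fold in 2 of the 10 and in 5.96%. The cytokine and vehicle libraries did not overlap in 9 of the 10 genes, against 61.0% of tested genes, and the exception was ATF5. The median log2 change of the 10 genes was 0.35, against -0.018 over all tested genes.

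Levels are given as CPM, counts relative to library totals corrected by TMM factors for composition, and a log2 change is that of cytokine over vehicle, given with its SE (standard error). Total counts were 13689972 to 16175364 in the cytokine libraries and 5871481 to 15894082 in the vehicle libraries, and the members' counts ran from 69 to 7756 in a library. Whether batches were grown as separate cultures is not stated, so the p-values reflect only the spread between these libraries, which may be technical. In bulk RNA, more cells expressing a gene and more RNA per cell cannot be told apart. All 8 beta-cell markers were detected, with INS at 3370 to 3948 CPM in cytokine and 3890 to 4196 CPM in vehicle libraries, and they passed the test in different directions. IAPP, PCSK1 and NKX6-1 were higher with cytokines (log2 changes 1.04, 0.74 and 0.12, that of NKX6-1 being smaller than the shift of -0.20 that scaling by library size alone brings), while INS, NKX2-2, PDX1, SLC30A8 and MAFA were lower (-0.14, -0.39, -0.53, -1.11 and -1.89), MAFA at 1.34 to 1.60 CPM in cytokine and 4.13 to 6.20 CPM in vehicle libraries. The part of these marker changes in the results was not tested. The leukocyte marker PTPRC had at most 4 counts and the endothelial marker PECAM1 at most 9 counts in a library. Another leukocyte marker, CD14, had up to 42 counts and did not pass, and the acinar marker CPA1 had up to 100. The duct marker KRT19 was at 130 to 139 CPM in cytokine and 150 to 167 CPM in vehicle libraries (log2 change -0.25, edgeR, adjusted p = 8.2e-05). Hormone genes of other islet cells were also present, with SST at 555 to 592 CPM in cytokine and 525 to 592 CPM in vehicle libraries. The summed level of 4 fibroblast markers was 12.1 to 13.9 CPM in cytokine and 2.94 to 3.86 CPM in vehicle libraries, nearly all of it PDGFRB, while COL1A1 stayed at or below 0.799 CPM. Its part in the results was not tested. The mitochondrial genome gave 3.50% to 3.55% of counts in cytokine and 3.76% to 3.81% in vehicle libraries.

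**Figure D1:**
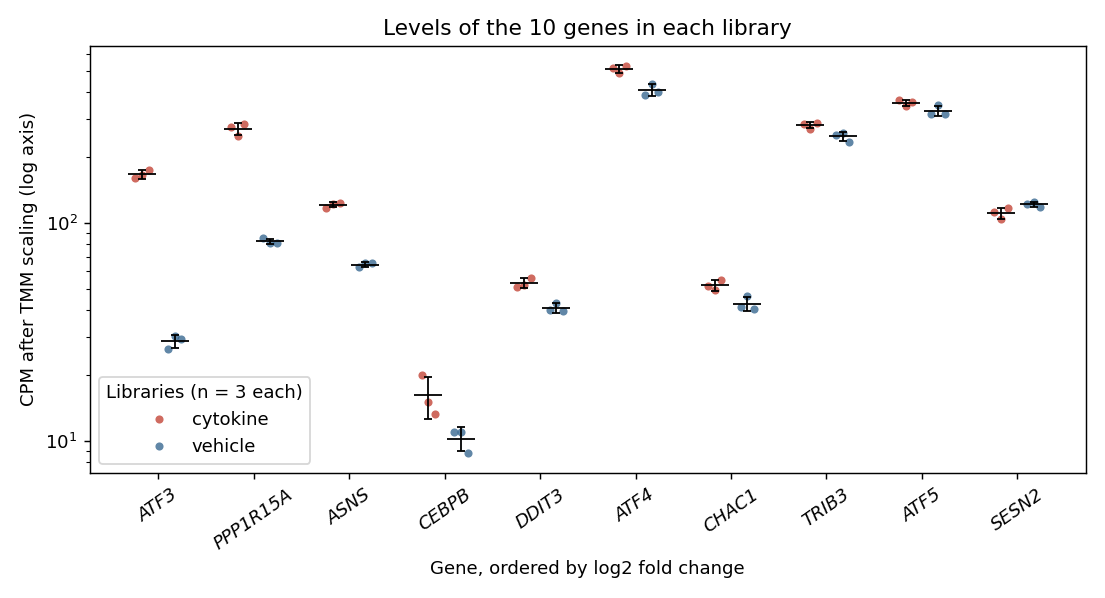
CPM after TMM scaling on a log axis for each of the 10 genes, with cytokine libraries (red) left of vehicle libraries (blue), a point per library and the mean ± SD (n = 3 each). ATF3 and PPP1R15A stand far apart between the groups, at 167 against 28.6 CPM and 271 against 82.4 CPM on average, whereas ATF5 overlaps and SESN2 is slightly lower with cytokines.

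The transcription factors at the head of the arm changed little. ATF4, on the plus strand of chromosome 22 at 39519695 to 39522685 (GENCODE 29, GRCh38), had 516, 489 and 526 CPM in cytokine replicates 1, 2 and 3, against 389, 437 and 400 CPM in vehicle replicates 1, 2 and 3. Every cytokine library lay above every vehicle library, although the gap between cytokine replicate 2 and vehicle replicate 2 was small. ATF4 averaged 510 ± 19.4 CPM in cytokine and 409 ± 25.2 CPM in vehicle libraries (SD, n = 3 each), which is 0.32 on the log2 scale (SE 0.0441, edgeR, adjusted p = 4.9e-07). DDIT3, on chromosome 12 from 57516588 to 57521737 (minus strand), encodes CHOP, a partner of C/EBP factors that promotes death under lasting stress. DDIT3 had 50.9, 51.7 and 56.2 CPM in cytokine libraries, against 39.9, 43.2 and 39.5 CPM in vehicle libraries. The groups were separate, and the log2 change of 0.37 (SE 0.0614, edgeR, adjusted p = 7.0e-06) was close to that of ATF4. DDIT3 shares 355 exon bases, 27.2% of its own, with MARS1 on the opposite strand, and although the library kit keeps strand, the counting setting is not given in the sources used here, so reads of the pair may be mixed. MARS1, a tRNA synthetase gene, rose 1.49-fold. On its own strand DDIT3 overlaps AC022506.1 and MIR616, and counted with them it had a log2 change of 0.40 (SE 0.0584, edgeR, adjusted p = 1.4e-06).

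ATF5, a relative of ATF4 that is also under translational control and acts in mitochondrial stress and beta-cell survival, lies on the plus strand of chromosome 19 at 49928702 to 49933935. Its levels were 367, 345 and 360 CPM in cytokine libraries, against 318, 347 and 317 CPM in vehicle libraries. Vehicle replicate 2 lay above cytokine replicate 2, so the groups overlapped. ATF5 averaged 357 ± 11.3 CPM in cytokine and 328 ± 16.8 CPM in vehicle libraries, which is 0.13 on the log2 scale (SE 0.0432, edgeR, adjusted p = 0.015). The call was lost without cytokine replicate 1 (edgeR, adjusted p = 0.058), without vehicle replicate 1 (0.052) and without vehicle replicate 3 (0.11). ATF5 passed under 10 of 16 alternatives. Leaving aside the test against a fold of 1.5, which asks another question and which ATF5 did not pass, the adjusted p ran from 0.00095 to 0.11. ATF5 contains the gene of the microRNA precursor MIR4751 and shares 626 exon bases, 21.2% of its own, with NUP62 on the opposite strand.

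CEBPB, a C/EBP factor of inflammatory and stress responses, is a gene of 1 exon on the plus strand of chromosome 20 at 50190734 to 50192689. CEBPB was the least abundant member, at 20.2, 15.1 and 13.3 CPM in cytokine libraries, against 10.96, 11.02 and 8.77 CPM in vehicle libraries. The groups did not overlap, but cytokine replicate 1 stood above the other 2 cytokine libraries. CEBPB rose by 0.71 on the log2 scale (SE 0.144, edgeR, adjusted p = 0.00037), and by 0.52 without cytokine replicate 1 (edgeR, adjusted p = 0.00051). Its antisense neighbour CEBPB-AS1, at 1.72 and 1.67 CPM in cytokine and vehicle libraries, did not pass the test.

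ATF3 rose most. It is a transcription factor induced early in stress and lies on the plus strand of chromosome 1 at 212565334 to 212620777. ATF3 had 161, 166 and 175 CPM in cytokine libraries, against 26.4, 30.2 and 29.3 CPM in vehicle libraries. The lowest cytokine library was far above the highest vehicle library, and the spread within each group was small. The log2 change was 2.53 (SE 0.0579, edgeR, adjusted p = 2.4e-24), and 1.78% of tested genes rose more. The next in size was PPP1R15A, the regulatory subunit that brings protein phosphatase to eIF2alpha so that translation can resume, on the plus strand of chromosome 19 at 48872392 to 48876057. PPP1R15A had 275, 252 and 286 CPM in cytokine libraries, against 85.3, 80.6 and 81.3 CPM in vehicle libraries. These groups too were far apart. Its log2 change was 1.72 (SE 0.0508, edgeR, adjusted p = 1.1e-21), and 3.06% of tested genes had a larger rise. The constitutive counterpart PPP1R15B rose 1.54-fold, to 82.8 ± 3.11 CPM in cytokine libraries, against 52.8 ± 4.96 CPM in vehicle libraries.

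The promoters of ATF3 and PPP1R15A are shown because these genes rose most. Each run is the 250 bases before a RefSeq gene start (GRCh38.p14), 5′ to 3′ on the gene's strand, with matches to the searched motifs in capitals.
ATF3, chr1:212565157-212565406, plus strand: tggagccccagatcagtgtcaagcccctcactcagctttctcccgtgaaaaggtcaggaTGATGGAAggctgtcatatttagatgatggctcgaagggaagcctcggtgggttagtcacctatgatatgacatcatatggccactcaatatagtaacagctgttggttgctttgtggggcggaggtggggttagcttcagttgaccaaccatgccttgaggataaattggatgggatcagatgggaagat
PPP1R15A, chr19:48872171-48872420, plus strand: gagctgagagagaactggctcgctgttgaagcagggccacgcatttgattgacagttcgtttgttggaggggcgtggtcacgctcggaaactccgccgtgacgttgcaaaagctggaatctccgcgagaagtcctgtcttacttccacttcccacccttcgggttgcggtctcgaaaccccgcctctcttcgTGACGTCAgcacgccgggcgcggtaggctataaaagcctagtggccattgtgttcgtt
In the ATF3 window the capitals mark TGATGNAA, the letters used here for the C/EBP-ATF response element, at bases -191 to -184 from the gene start. This is the window of the more upstream of 2 ATF3 starts in the table, and the other window held none of the searched motifs. In the PPP1R15A window they mark the cAMP response element TGACGTCA, a palindrome, at -58 to -51. Among 34943 windows of all genes, 3.15% held TGATGNAA and 1.63% held TGACGTCA on either strand. A match describes letters and is not evidence of binding.

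TRIB3, a pseudokinase that is a target of ATF4 and CHOP and can restrain ATF4, lies on the plus strand of chromosome 20 at 362835 to 397559. TRIB3 had 286, 271 and 289 CPM in cytokine libraries, against 255, 258 and 237 CPM in vehicle libraries. The groups were separate by a narrow margin, since cytokine replicate 2 was just above vehicle replicate 2. The log2 change was 0.18 (SE 0.0440, edgeR, adjusted p = 0.001), a 1.13-fold rise, and 30.3% of tested genes rose more.

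The metabolic members differed from each other. ASNS, asparagine synthetase, a target of ATF4 in amino acid shortage, lies on chromosome 7 from 97852118 to 97872542 (minus strand). ASNS had 118, 123 and 124 CPM in cytokine libraries, against 62.6, 65.3 and 65.4 CPM in vehicle libraries. The groups were far apart, and ASNS rose by 0.91 on the log2 scale (SE 0.0489, edgeR, adjusted p = 2.0e-15). AC079781.5, annotated on the same strand, shares 1985 exon bases, 44.6% of those of ASNS, so the counts of the pair may have been split. Counted together they averaged 229 ± 8.14 CPM in cytokine and 121 ± 3.68 CPM in vehicle libraries, a log2 change of 0.92 (edgeR, adjusted p = 2.4e-16). CHAC1, a glutathione-degrading enzyme often used as a readout of the ATF4-CHOP arm, lies on the plus strand of chromosome 15 at 40952962 to 40956519. CHAC1 had 51.2, 49.1 and 54.8 CPM in cytokine libraries, against 41.3, 46.4 and 40.2 CPM in vehicle libraries. The groups were separate, with vehicle replicate 2 close to the cytokine libraries, and the log2 change was 0.28 (SE 0.0641, edgeR, adjusted p = 0.00042).

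The ASNS and CHAC1 windows are shown because both held the letters TGATGNAA, although ASNS rose 1.88-fold and CHAC1 1.22-fold.
ASNS, chr7:97872409-97872658, minus strand: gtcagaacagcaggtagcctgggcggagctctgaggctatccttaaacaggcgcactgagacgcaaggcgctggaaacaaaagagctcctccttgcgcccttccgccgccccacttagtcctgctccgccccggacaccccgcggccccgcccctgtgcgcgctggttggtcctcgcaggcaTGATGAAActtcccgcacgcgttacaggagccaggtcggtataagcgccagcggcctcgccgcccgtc
CHAC1, chr15:40953221-40953470, plus strand: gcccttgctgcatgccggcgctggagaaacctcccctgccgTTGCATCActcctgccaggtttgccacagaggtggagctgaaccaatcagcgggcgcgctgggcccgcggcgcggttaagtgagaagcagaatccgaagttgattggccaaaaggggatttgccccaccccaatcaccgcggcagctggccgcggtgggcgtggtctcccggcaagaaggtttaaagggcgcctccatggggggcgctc
The capitals mark TGATGNAA at -68 to -61 in ASNS and, read from the opposite strand, at -209 to -202 in CHAC1. Over the 19 windows of the 10 members, 3 windows of 3 genes held TGATGNAA, those of ATF3, ASNS and CHAC1. A separate ASNS window, at a more downstream start, held none of the motifs. No member window held the gamma-activated site TTCNNNGAA or the endoplasmic reticulum stress element, searched as CCAAT and CCACG 9 bases apart, which were found in 6.56% and 0.0744% of all windows. No match says only that these letters are not in this window.

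SESN2 went against the others. It encodes sestrin 2, which restrains mTORC1 when leucine is short and is a target of ATF4 and of p53, and lies on the plus strand of chromosome 1 at 28259527 to 28282491. SESN2 had 112, 104 and 117 CPM in cytokine libraries, against 122, 124 and 118 CPM in vehicle libraries. The groups were separate, but cytokine replicate 3 and vehicle replicate 3 were close. SESN2 averaged 111 ± 6.64 CPM in cytokine and 122 ± 3.05 CPM in vehicle libraries, which is -0.13 on the log2 scale (SE 0.0492, edgeR, adjusted p = 0.027). The fall was lost with DESeq2 and without cytokine replicate 1 (edgeR, adjusted p = 0.079) or 2 (0.20) and vehicle replicate 1 (0.069) or 2 (0.14). It did not pass in the authors' deposited table either (FDR 0.188), where the other 9 members passed as higher.

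The windows of SESN2 and ATF5, the members with the smallest absolute changes, are given for comparison with those above.
SESN2, chr1:28259268-28259517, plus strand: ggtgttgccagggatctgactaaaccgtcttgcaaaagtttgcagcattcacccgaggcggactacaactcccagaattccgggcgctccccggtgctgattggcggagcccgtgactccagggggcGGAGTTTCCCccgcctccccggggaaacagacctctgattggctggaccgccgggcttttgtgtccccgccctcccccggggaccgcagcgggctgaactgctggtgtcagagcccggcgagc
ATF5, chr19:49928656-49928905, plus strand: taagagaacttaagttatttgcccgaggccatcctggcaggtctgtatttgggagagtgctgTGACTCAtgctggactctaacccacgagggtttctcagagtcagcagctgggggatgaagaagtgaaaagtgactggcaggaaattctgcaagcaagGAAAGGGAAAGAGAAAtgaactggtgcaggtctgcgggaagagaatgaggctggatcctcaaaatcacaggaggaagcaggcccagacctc
In SESN2 the capitals mark a match to the NF-kappaB consensus, on the opposite strand, at -123 to -114. In ATF5 they mark the AP-1 element TGANTCA at -188 to -182 and a run of 2 overlapping copies of the interferon-stimulated response element, searched as GAAA and GAAA 2 bases apart, at -91 to -76. Of all windows, 9.95% held the NF-kappaB consensus, 6.59% TGANTCA and 3.02% the interferon element. ATF5 carried the letters of an interferon element in 1 of its 3 windows while its log2 change was 0.13. TGANTCA was also found in both DDIT3 windows, and the NF-kappaB consensus in 1 window each of ATF5 and CEBPB.

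Small changes depended on the scaling. Scaling by library size alone shifted the median tested gene by -0.20 on the log2 scale and left 6 of the 10 members called higher, against 16.7% of tested genes, with SESN2 lower, against 49.2% of tested genes, and TRIB3, ATF5 and CHAC1 not passing. Under it ATF3 and PPP1R15A were still 5.02-fold and 2.87-fold higher, and ASNS and CEBPB 1.63-fold and 1.42-fold. ATF4 and DDIT3 kept log2 changes of 0.12 (edgeR, adjusted p = 0.017) and 0.17 (edgeR, adjusted p = 0.016). TRIB3 and ATF5 turned to -0.023 (edgeR, adjusted p = 0.65) and -0.077 (edgeR, adjusted p = 0.10), and SESN2 reached -0.33 (edgeR, adjusted p = 1.3e-06). Tested against a fold of 1.5 with glmTreat, 3 members passed, namely ATF3, PPP1R15A and ASNS, against 7.81% of tested genes that passed as higher.

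**Figure D2:**
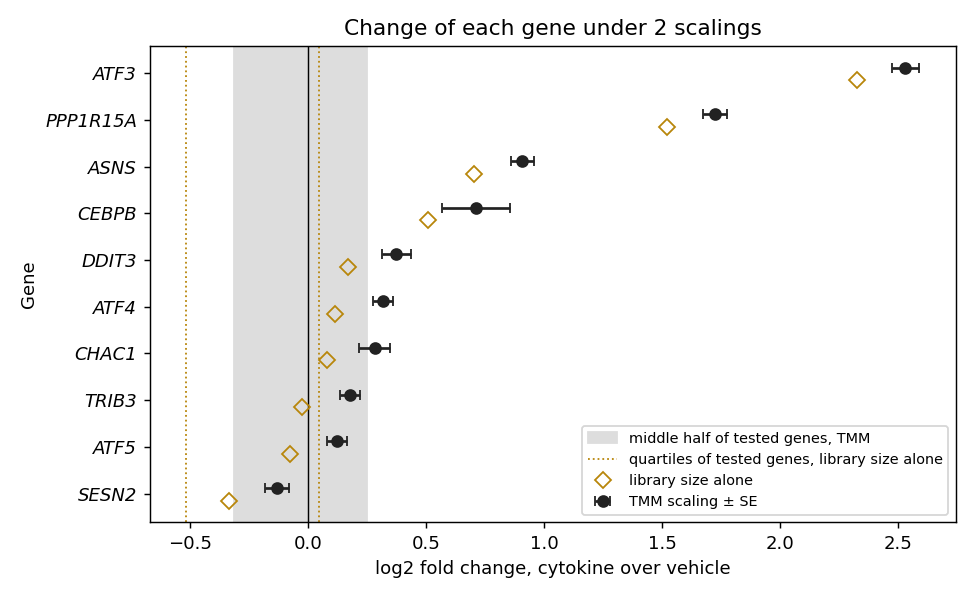
Log2 fold change of cytokine over vehicle for each gene, with TMM scaling (filled, ± SE) and with library size alone (open diamonds), the interquartile range of all tested genes with TMM scaling in grey (-0.31 to 0.25) and that with library size alone between dotted lines (-0.51 to 0.049). Against the range of the same scaling, ATF3, PPP1R15A, ASNS, CEBPB, DDIT3, ATF4 and CHAC1 lie above it under both scalings, and TRIB3, ATF5 and SESN2 lie within it under both.

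A ratio of 2 genes within a library does not depend on scaling between libraries, so each member was set against ATF4. The log2 ratio of ATF3 to ATF4 was -1.68, -1.56 and -1.58 in cytokine libraries, against -3.88, -3.85 and -3.77 in vehicle libraries, a 4.68-fold difference. The groups were far apart. For PPP1R15A the mean ratio was -0.91 ± 0.0401 in cytokine and -2.31 ± 0.125 in vehicle libraries, and for ASNS -2.07 ± 0.0723 in cytokine and -2.66 ± 0.0686 in vehicle libraries. Both were thus higher relative to ATF4 with cytokines, by 1.39 and 0.59. SESN2 was lower relative to ATF4, at -2.20 ± 0.0326 in cytokine and -1.74 ± 0.0729 in vehicle libraries, and so were ATF5 and TRIB3, by differences of -0.20 and -0.15. These 6 ratios did not overlap between groups, and each gave a two-sided exact permutation p of 0.1, the smallest that 3 against 3 libraries allow (0.15 after adjustment over 9 ratios). By CPM, 61.0% of all tested genes did not overlap, and the share of them by ratio to ATF4 is not given here. The number of separate ratios is therefore not a result about these members.

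DDIT3 and CHAC1 differed little from ATF4. The log2 ratio of DDIT3 to ATF4 was -3.34, -3.24 and -3.23 in cytokine libraries, against -3.29, -3.34 and -3.34 in vehicle libraries (difference 0.053, two-sided exact permutation p = 0.4). The groups overlapped. The ratio of CHAC1 to ATF4 was -3.33, -3.31 and -3.26 in cytokine libraries, against -3.23, -3.23 and -3.31 in vehicle libraries (difference -0.042, two-sided exact permutation p = 0.3). These groups overlapped as well, though such p-values do not show that the genes moved alike. CEBPB, with its wide spread, had a difference of 0.32 and also overlapped (two-sided exact permutation p = 0.3).

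**Figure D3:**
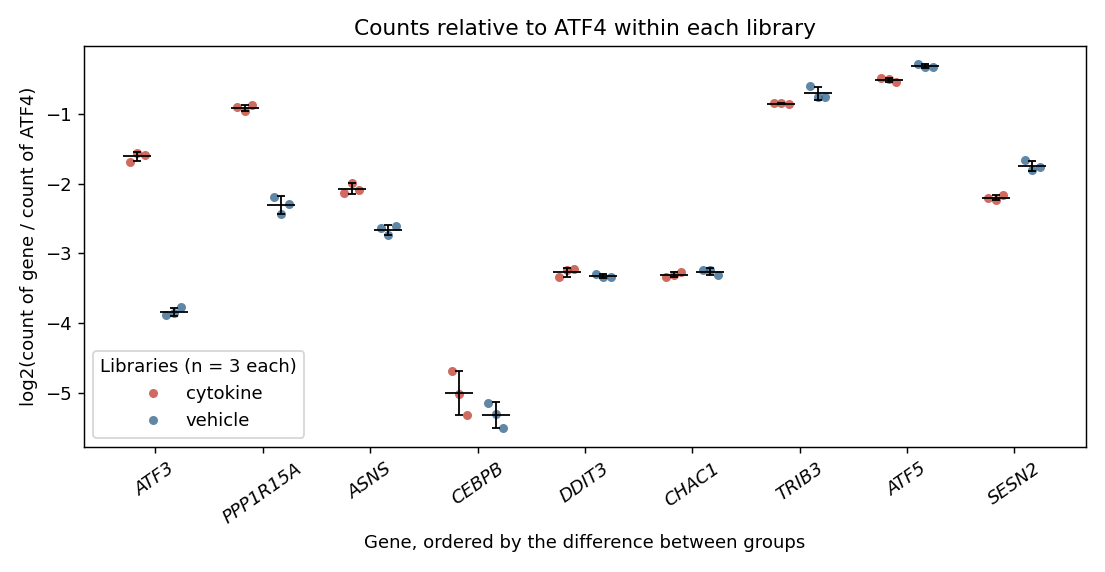
Log2 ratio of each gene's count to the ATF4 count within a library, with cytokine libraries (red) left of vehicle libraries (blue) and the mean ± SD (n = 3 each). ATF3, PPP1R15A and ASNS are higher relative to ATF4 in every cytokine library, DDIT3, CHAC1 and CEBPB overlap, and TRIB3, ATF5 and SESN2 are lower.

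The order of the members by level changed with cytokines. TPM, counts per exon length scaled to a common total within a library (GENCODE 29 exons, no TMM factor), were used to set genes against each other within a group, since longer mRNAs give more counts. ATF4 was the most abundant member, at 686 ± 22.6 TPM in cytokine and 634 ± 36.2 TPM in vehicle libraries, followed by ATF5 at 409 and 432 TPM, and CEBPB the least, at 27.96 and 20.4 TPM. PPP1R15A was in place 3 in cytokine and place 6 in vehicle libraries, ATF3 in place 5 and 9, and SESN2 in place 7 and 4. ASNS was in place 8 in both, without the counts of AC079781.5, which overlaps it on the same strand. With them ASNS had 229 CPM against 121 CPM in cytokine libraries, and 121 CPM against 64.4 CPM in vehicle libraries. The place of ASNS may thus be too low, and the places of other members depend on it. In cytokine libraries PPP1R15A and TRIB3 overlapped (296 and 278 TPM), as did ATF3 and DDIT3 (140 and 137 TPM), and the other neighbours in the order did not. In vehicle libraries no neighbours overlapped.

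Around the arm, 13 lists held 182 further genes, of which 175 were tested. The test called 110 of them higher and 23 lower, with 42 in neither class. These are 62.9% higher and 13.1% lower, against 28.3% and 28.8% of all tested genes. The lists, like the members, were chosen with earlier results of these data known, so such shares describe them and are not a test. Library size alone gave 83 higher and 55 lower, or 47.4% and 31.4%, against 16.7% and 49.2% of all tested genes. Their median log2 change was 0.31, against -0.018 over all tested genes, and each list below is to be read against the same shares and median. The share called higher was under that of all tested genes for the mitochondrial stress genes (20.0%), and the next lowest was that of the eIF2 list (44.4%).

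Among the sensors and partners of eIF2alpha, changes went both ways. Of 18 genes for eIF2alpha kinases and the factors eIF2 and eIF2B, 8 rose and 4 fell, with a median log2 change of 0.13, and with library size alone 6 rose and 8 fell. EIF2AK2, the interferon-inducible kinase PKR, rose 2.68-fold, to 148 ± 5.17 CPM in cytokine libraries, against 54.4 ± 5.68 CPM in vehicle libraries. EIF2AK3, the kinase PERK of the endoplasmic reticulum, rose 1.47-fold, to 72.5 CPM in cytokine libraries, against 49.2 CPM in vehicle libraries. EIF2AK1, the haem-regulated kinase, did not pass at 117 and 125 CPM in cytokine and vehicle libraries, and was called lower with library size alone. EIF2AK4, the amino acid sensor GCN2, was at 35.9 and 40.5 CPM (log2 change -0.18, edgeR, adjusted p = 0.026), a call lost under 8 of 16 alternatives, among them each cytokine replicate left out in turn (0.052, 0.052 and 0.11) and vehicle replicate 2 left out (0.36). IMPACT, an inhibitor of GCN2, and EIF2D fell by 0.29 and 0.30 (log2). EIF2AK1, EIF2AK3 and EIF2AK4 were named after their values were seen.

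Targets in amino acid metabolism were mixed. Of 15 genes for serine, one-carbon and amino acid synthesis, 8 rose and 4 fell (median log2 change 0.14), and with library size alone 4 rose and 7 fell. CTH, which makes cysteine, rose 4.44-fold to 12.1 ± 1.03 CPM in cytokine libraries, against 2.97 ± 1.00 CPM in vehicle libraries, and the transaminase GPT2 rose 1.63-fold. SHMT1 and PSPH, of serine and glycine synthesis, fell by 0.93 and 0.51 (log2). Of 11 tested amino acid transporters 8 rose and SLC6A9 fell (median 0.36), and with library size alone 7 rose and 3 fell. SLC7A5, a subunit of the leucine transporter, rose 2.15-fold to 126 ± 2.69 CPM in cytokine libraries, against 58.7 ± 5.82 CPM in vehicle libraries, and SLC38A1, of low abundance, rose to 2.36 CPM in cytokine libraries, against 0.538 CPM in vehicle libraries. The glycine transporter gene SLC6A9 fell by 0.40 on the log2 scale, which DESeq2 under its own filter did not call (adjusted p = 0.055). Of 21 cytosolic aminoacyl-tRNA synthetase genes, 13 rose and QARS1 fell (median 0.27), and with library size alone 10 rose and 7 fell. WARS1, an interferon-inducible synthetase, rose 37.7-fold and KARS1 rose by a log2 change of 1.43, while QARS1 fell by 0.51 on the log2 scale.

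Other genes linked to ATF4 and CHOP were mixed as well. Of 16 tested further targets, 8 rose and 2 fell (median 0.12), and with library size alone 5 rose and 6 fell. GDF15, a stress-induced secreted factor, rose 2.59-fold to 24.2 CPM in cytokine libraries, against 9.64 CPM in vehicle libraries, and CREBRF, a regulator of the unfolded protein response, rose 2.39-fold. VLDLR, a lipoprotein receptor, fell by 0.57 on the log2 scale. DDIT4, an inhibitor of mTORC1, had a log2 change of -0.17 (edgeR, adjusted p = 0.019), with overlapping groups and the call lost under 8 of 16 alternatives, among them cytokine replicate 1 or 2 left out (0.063 and 0.18) and vehicle replicate 2 or 3 left out (0.14 and 0.075). Of 12 tested genes of CHOP-linked cell death, 7 rose and 3 fell (median 0.49), and with library size alone 7 rose and 5 fell. CASP4, an inflammatory caspase, rose 13.3-fold to 81.8 ± 3.11 CPM in cytokine libraries, against 6.44 ± 1.46 CPM in vehicle libraries. PMAIP1, the pro-apoptotic NOXA, rose 3.49-fold. The death receptor gene TNFRSF10B, a CHOP target named after its values were seen, rose 1.84-fold. BID, pro-apoptotic, fell by 0.36 and BCL2, anti-apoptotic, by 0.47 on the log2 scale. BCL2 was of low abundance, at 4.51 CPM in cytokine and 6.29 CPM in vehicle libraries. MCL1, also anti-apoptotic and named after its values were seen, rose 2.36-fold. It reached 358 CPM in cytokine libraries, against 152 CPM in vehicle libraries. DESeq2 did not call BCL2, with its own filter (adjusted p = 0.12) or on the filtered genes (0.059).

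Paralogs of the members went in both directions. Of 18 tested paralogs 10 rose and 4 fell (median 0.20), and with library size alone 5 rose and 6 fell. In the C/EBP family, CEBPD rose 5.09-fold to 10.4 ± 0.968 CPM in cytokine libraries, against 2.09 ± 0.275 CPM in vehicle libraries, while CEBPA fell by 0.86 on the log2 scale, to 9.67 CPM in cytokine libraries, against 17.7 CPM in vehicle libraries. CEBPG, a partner of ATF4, rose by 0.16 on the log2 scale (edgeR, adjusted p = 0.0091), but its change was -0.039 with library size alone and the call was lost without vehicle replicate 3 (edgeR, adjusted p = 0.085). CEBPZ did not pass and CEBPE was not tested. In the tribbles family TRIB1 rose 4.65-fold, to 24.5 ± 1.89 CPM in cytokine libraries, against 5.58 ± 1.05 CPM in vehicle libraries, while TRIB2 fell by 0.46 on the log2 scale, beside the 1.13-fold rise of TRIB3.

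SESN1, a p53 target, fell by 0.26 on the log2 scale and SESN3, at 174 and 176 CPM in cytokine and vehicle libraries, did not pass. CHAC2, at 1.22 and 2.33 CPM, had a log2 change of -0.92 (edgeR, adjusted p = 0.014), lost without cytokine replicate 1 (0.093), without vehicle replicate 2 (0.26) and with DESeq2 and its own filter (0.099). Among the ATF and BATF factors, BATF2 rose 59.9-fold to 205 ± 9.18 CPM in cytokine libraries, against 3.47 ± 0.306 CPM in vehicle libraries. BATF3 also passed, with 81, 73 and 75 counts in cytokine libraries, against 3, 0 and 0 counts in vehicle libraries. ATF6, ATF6B and ATF7 rose by 0.23 to 0.26 on the log2 scale and did not pass with library size alone, ATF1 and ATF2 did not pass, and BATF was not tested. JDP2, a partner of ATF3, had a log2 change of 0.62 (edgeR, adjusted p = 0.012), a call lost under 7 of 16 alternatives. Among them were library size alone (0.077), cytokine replicate 2 left out (0.066) and vehicle replicate 3 left out (0.074). DESeq2 did not call JDP2 either, with its own filter (adjusted p = 0.12) or on the filtered genes (0.066).

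A further list, drawn up around ATF3, held AP-1 and small MAF genes. All 10 that were tested rose, 9 of them also with library size alone, and their median log2 change was 1.60. MAFF rose 10.6-fold to 48.6 ± 2.48 CPM in cytokine libraries, against 4.73 ± 0.486 CPM in vehicle libraries. FOS rose 7.54-fold to 75.2 ± 3.46 CPM in cytokine libraries, against 9.61 ± 1.27 CPM in vehicle libraries. DDIT3 and PPP1R15A also carry GADD names as aliases. A list made around these names held GADD45A, GADD45B and GADD45G, and also GADD45GIP1 and PPP1R15B, which are not GADD45 genes. All 5 rose, 4 of them also with library size alone. GADD45GIP1, named after its values were seen, had overlapping groups (log2 change 0.21, edgeR, adjusted p = 0.028). Its call was lost under 8 of 16 alternatives. GADD45B rose 6.79-fold, to 22.0 ± 2.25 CPM in cytokine libraries, against 3.19 ± 0.317 CPM in vehicle libraries, and GADD45A, a p53 target, rose 1.83-fold.

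Most genes listed for the other arms of the unfolded protein response rose by moderate amounts, and the activity of these arms was not measured. All 13 genes of the IRE1-XBP1 arm rose (median log2 change 0.46), 10 of them with library size alone, and 14 of 16 genes of the ATF6 arm and the chaperones rose (median 0.55), against 12 that rose and 1 that fell with library size alone. PDIA6 rose 2.73-fold and PDIA3 2.39-fold, both protein disulphide isomerases. EDEM2, of protein degradation, and SDF2L1 rose 1.84-fold and 1.87-fold. Of 19 further p53 targets, a list that does not hold SESN2, 10 rose and 3 fell (median 0.20), and 8 rose and 8 fell with library size alone. CDKN1A, the cell cycle inhibitor p21, rose 1.71-fold, while FDXR and TP53I3 fell by 0.55 and 0.35 on the log2 scale, though DESeq2 under its own filter did not call TP53I3 (adjusted p = 0.051). Of 10 mitochondrial stress genes 2 rose and 2 fell (median -0.055), and none rose and 7 fell with library size alone, so that the rises of LONP1 (0.24) and YME1L1 (0.20) did not pass there. The chaperone HSPD1 and LRPPRC fell by 0.30 and 0.27 on the log2 scale.

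**Figure D4:**
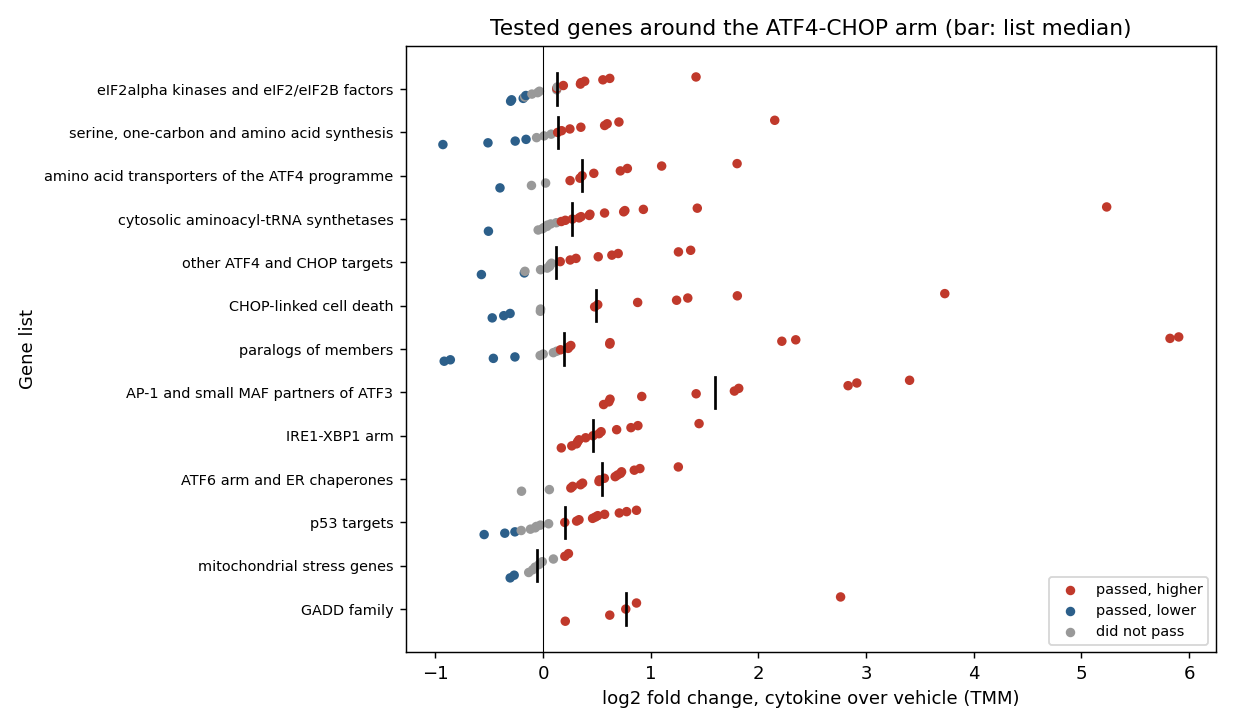
Log2 fold change of cytokine over vehicle (TMM scaling) for every tested gene of the 13 lists, red where higher and blue where lower past the test, grey where not, with a bar at each list's median. The AP-1 and small MAF genes have the highest median, 1.60, and the mitochondrial stress genes the lowest, -0.055.

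Genes with the most similar profile were found by the distance between log2 CPM values centred on each gene's mean over the 6 libraries. Nearest to ATF3 were MVP, IGFLR1 and SOD2 (distances 0.159, 0.163 and 0.169), which rose 5.33-fold, 5.84-fold and 5.37-fold. Nearest to DDIT3 were EIF2S1, which encodes eIF2alpha itself, SYP and HAX1 (0.0505, 0.0518 and 0.0553), which rose 1.31-fold, 1.29-fold and 1.32-fold. Nearest to ATF4 were ODF2, TMED2 and SLC39A7 (0.0249, 0.0526 and 0.0551), which rose 1.24-fold to 1.28-fold. With 6 libraries in 2 groups, such likeness mostly restates the size of the change.

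**Figure D5:**
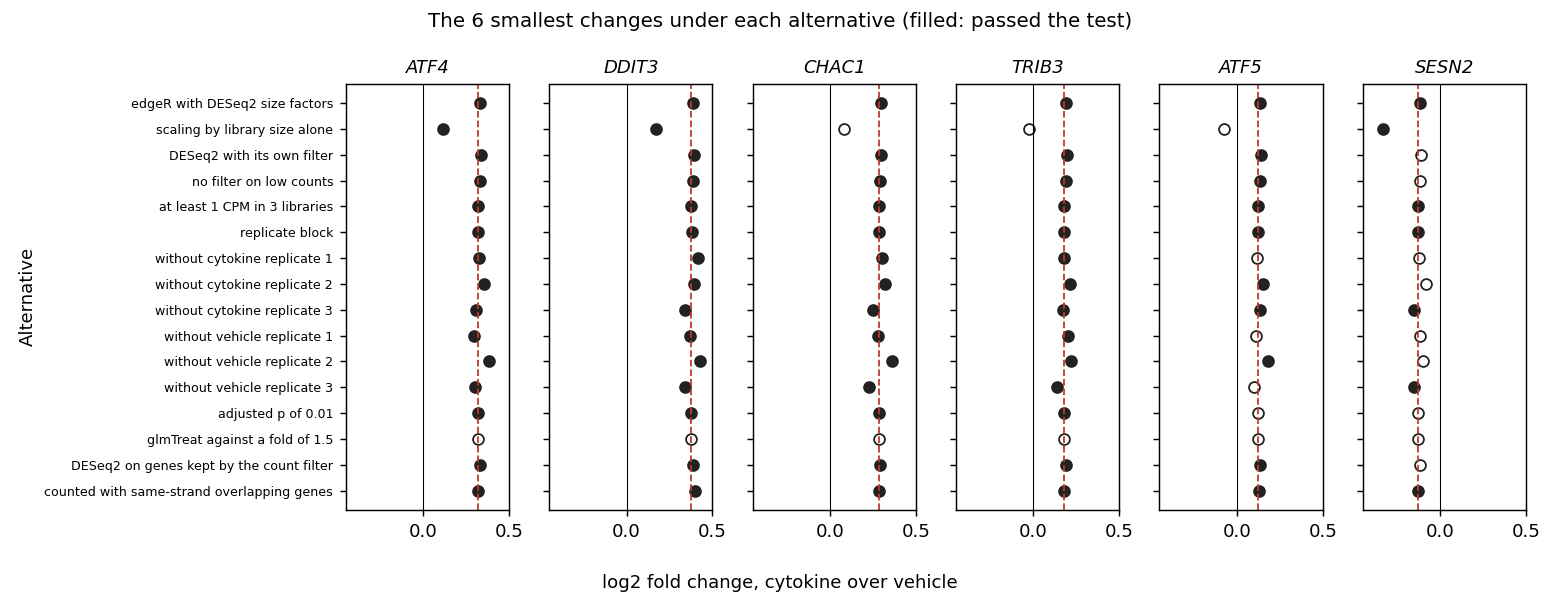
Log2 fold change of cytokine over vehicle for the 6 members with the smallest absolute change under each of 16 alternatives, filled where the test was passed, with a dashed line at the value reported. ATF4 and DDIT3 passed under 15 of the 16, CHAC1 and TRIB3 under 14, ATF5 under 10 and SESN2 under 7.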

How the data were processed

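RNA was measured in 3 cytokine and 3 vehicle libraries, grouped by the treatment in the sample titles. Total RNA came from a Nucleospin miRNA preparation and the library kit (NEBNext Ultra II Directional) keeps strand, per the labels' protocols. HTSeq 0.12.4, STAR 2.7.5a and cutadapt 2.10 were among the tools used, with build GRCh38 and with roles not given, per the submitters' processing notes. The authors deposited an estimated count per gene and library, not normalised and not always whole, and columns named NT were taken as vehicle because the others carry the cytokine name and replicate numbers match. Within 0.005, 67.3% to 73.5% of the values above 0 were whole. The authors also deposited a log2 fold change and an FDR, an adjusted p-value, with no tool named.

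Estimated counts were rounded to whole numbers, although counts as deposited were planned, filtered with filterByExpr and scaled with TMM. Tests were run in R 4.3.3 by edgeR 4.0.16 with glmQLFit (robust) and group as the only term, over 17863 genes with Benjamini-Hochberg adjustment at 0.05, and the SE was the log2 fold change divided by the square root of F. DESeq2 1.42.0 was an alternative. Ratios to ATF4 used counts plus 0.5 and a two-sided exact permutation test. Coordinates, overlaps and exon lengths came from GENCODE 29, which held 58352 of the 60611 identifiers, and promoter windows from RefSeq (GRCh38.p14), where all 10 members were matched to 19 windows. Motifs were searched on both strands in the 250 bases before each start. The sequence read was the reference, not that of the cell line.

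The members and lists were chosen with earlier results of these data known. Besides the members, the text names all paralogs, up to 2 higher and 2 lower genes per list by log2 change, given a mean of 1 CPM or more on the higher side, overlapping genes, and the 3 nearest profiles of ATF3, DDIT3 and ATF4. Simulated counts for the same 17863 genes, 200 of them changed, were used to test the fit, and 42%, 84%, 98% and 100% of changes of 0.25, 0.5, 1 and 2 on the log2 scale were recovered. Of 166 calls 4 were false. In the data 57.1% of tested genes were called, far more than were changed in the simulation. The recovered shares therefore check the fit and do not give its power for the members. Each library was counted as a sample. Replicates of a group differed by a chi-square of 1.37 to 2.45 per gene, which cannot show whether they came from separate cultures.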

Additional observations from a re-analysis of the deposited data

How the results depend on the processing

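ATF3, PPP1R15A and ASNS were called higher under each of the 16 alternatives. Scaling by library size alone gave 2980 genes higher and 8791 lower and 55 context list genes lower, turned ATF5 to -0.077 and TRIB3 to -0.023, and left CHAC1 at 0.081 without a call, since it moves all changes down together. Against a fold of 1.5, glmTreat called 1395 genes higher and 949 lower, 3 members higher and 0 lower, and 44 context genes higher and 2 lower. It ended the calls of ATF4 (0.32), ATF5 (0.13), DDIT3 (0.37), TRIB3 (0.18), CHAC1 (0.28), SESN2 (-0.13) and CEBPB (0.71). At an adjusted p of 0.01, ATF5 (0.13) and SESN2 (-0.13) were lost, which left 0 members lower. DESeq2 with its own filter gave 3365 genes lower and SESN2 at -0.11, DESeq2 on the filtered genes SESN2 at -0.12, and edgeR with no count filter SESN2 at -0.12, each with 0 members lower, and the cause was not tested. Leaving out each library gave 0 to 1 members lower, ATF5 at 0.10 to 0.18 and SESN2 at -0.16 to -0.080.

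Against the eIF2 list in place of ATF4, the differences were 2.38 for ATF3, -0.041 for ATF5, 0.21 for DDIT3, 0.0087 for TRIB3, 0.11 for CHAC1, 0.75 for ASNS, 1.55 for PPP1R15A and -0.30 for SESN2. Against the median gene, chosen after seeing the data, they were 2.46, 0.042, 0.29, 0.091, 0.20, 0.83, 1.63 and -0.22 in the same order. The signs of TRIB3 and CHAC1 turned with both denominators and that of ATF5 with the median gene, since changing the denominator moves every difference by the change of ATF4 relative to it.

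Deviations of same-numbered libraries correlated at 0.012, -0.047 and -0.050, and those of differently numbered ones at -0.012 to 0.058. Values this near 0 over all genes cannot settle whether the replicate numbers pair the libraries. With the replicate number as a block, 5001 genes were higher and 5097 lower, and the calls of the 10 members were unchanged. CEBPB then had a log2 change of 0.63 (edgeR, adjusted p = 8.4e-07), against 0.71 (0.00037) without the block. Counting ASNS, ATF5 and DDIT3 with same-strand overlapping genes and DESeq2 on the filtered genes were also chosen after seeing the data. Counting error limits CEBPB most, at 69 counts in vehicle replicate 1.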

Other observations

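Taken as shares of the summed counts of the 10 genes, ATF3 made up 8.21%, 8.91% and 8.76% in cytokine libraries and 1.95%, 2.09% and 2.19% in vehicle libraries, and PPP1R15A 13.9% on average in cytokine and 5.99% in vehicle libraries. ATF4 made up 26.3% in cytokine and 29.7% in vehicle libraries, and ATF5, TRIB3, SESN2, DDIT3 and CHAC1 also made up smaller shares with cytokines, DDIT3 at 2.73% and 2.96% and CHAC1 at 2.66% and 3.09% in cytokine and vehicle libraries. The CPM of ATF4, ATF5, TRIB3, DDIT3 and CHAC1 was higher with cytokines under TMM scaling, so these smaller shares are relative to a sum that holds the larger ATF3, PPP1R15A and ASNS counts. In the GENCODE 29 transcript taken for each gene, ATF4 had 7 upstream ATG triplets in a 5′ leader of 882 bases. Of 19491 protein-coding genes, 6.19% had as many or more. The transcript was chosen by annotation tags, then coding length, then total length, and not by its use in these cells. ATF5, DDIT3, TRIB3, ASNS and PPP1R15A had 2 each, and 31.1% of genes had as many or more, while the transcripts taken for CHAC1 and CEBPB had 0.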
